A study of Mus musculus with 2 samples.

Results

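A set of 10 genes of antigen presentation by class I molecules of the major histocompatibility complex (MHC) was followed through the immune cells of the mouse colon. They were chosen by symbol as named members of the pathway, with earlier results of these data known, and all 10 of the 10 symbols were found among the 32285 genes of the deposited matrices. Single-cell RNA sequencing had been performed on cells of the colon lamina propria, labelled cd11b+ after a surface protein of myeloid cells. There were 2 libraries, 1 per group, titled Runx3_fl and Runx3, each pooled from young adult male mice. The study compared RUNX3 fl/fl-Lyz2-Cre mice, in which Cre is driven by a gene of macrophages and neutrophils, with their RUNX3 fl/fl littermates, so both groups carry the floxed alleles. The titles do not state Cre, so no genotype is assigned and the libraries are named by their labels. With 1 library per group no difference has a replicate check: no test was run, and the intervals given (95%) cover counting error only.

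Class I molecules sit on the surface of nearly all nucleated cells and show peptides from the cell's own proteins to CD8 T cells. Peptides are cut by the proteasome, carried into the endoplasmic reticulum by the transporter TAP, and loaded onto a heavy chain bound to beta-2 microglobulin. Interferon-gamma is known to raise the whole set, including 3 catalytic proteasome subunits that replace the constitutive ones to form the immunoproteasome. The 10 genes are H2-K1 and H2-D1 (heavy chains), B2m (beta-2 microglobulin), Tap1 and Tap2 (the transporter), Tapbp (tapasin, which bridges transporter and heavy chain), Psmb8, Psmb9 and Psmb10 (immunoproteasome subunits) and Nlrc5 (the transactivator of class I genes).

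Most of the set lies in the MHC region of chromosome 17. In the GENCODE M21 annotation of GRCm38, all 10 are protein coding. The heavy-chain genes are H2-K1 (ENSMUSG00000061232) at chr17:33996017-34000347 on the minus strand and H2-D1 (ENSMUSG00000073411) at chr17:35262730-35267499 on the plus strand. Tapbp lies at chr17:33915899-33929292. Next to each other lie Psmb9 at chr17:34181987-34187764 on the minus strand, Tap1 at chr17:34187553-34197225, Psmb8 at chr17:34197721-34201454 and Tap2 at chr17:34203527-34216321 on the plus strand. The others are B2m at chr2:122147686-122153083, Nlrc5 at chr8:94434356-94527272 and Psmb10 at chr8:105935735-105938444. Psmb9 and Tap1 overlap at their 5′ ends on opposite strands, and Tapbp overlaps Zbtb22 on the same strand. H2-K1 and H2-D1 resemble each other and other class I genes closely, so their split is uncertain wherever counting could not place a read.

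The promoters of the heavy chains and of B2m are shown because all 3 hold the kappa B motif and no other window searched does. RefSeq promoter windows (GRCm38.p6, 250 bases before to 50 after each start) held 8 of the 10 genes, all but Tap2 and Nlrc5. Both strands were searched for 5 motifs. These were a kappa B motif, which opens with GGG and closes with CC, an interferon-stimulated motif spelled GAANNGAAA, a gamma-activated motif spelled TTCNNNGAA, which reads the same on both strands, an X2 motif spelled TGACG and a Y motif spelled ATTGG, the inverted CAAT box. Motifs were searched independently, so matches could overlap. The bases before the starts of H2-K1 (chr17:34000348-34000477, minus strand) and B2m (chr2:122147527-122147685, plus strand) read as follows, with kappa B, interferon-stimulated, X2 and Y matches in capitals.
H2-K1: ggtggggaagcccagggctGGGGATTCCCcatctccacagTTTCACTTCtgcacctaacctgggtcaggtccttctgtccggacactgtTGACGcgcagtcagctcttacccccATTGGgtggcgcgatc
B2m: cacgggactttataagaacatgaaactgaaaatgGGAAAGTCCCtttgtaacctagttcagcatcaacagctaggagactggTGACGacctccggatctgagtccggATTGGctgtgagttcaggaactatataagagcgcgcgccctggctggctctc

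The kappa B stretch of H2-D1 (chr17:35262913-35262942, plus strand) had 29 of 30 bases in common with that of H2-K1 (chr17:34000439-34000468, minus strand), while that of B2m (chr2:122147551-122147580, plus strand) had 12 of 30. They are set side by side to show how alike the heavy-chain promoters are.
H2-K1: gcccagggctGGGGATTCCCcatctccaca
H2-D1: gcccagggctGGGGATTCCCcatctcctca
B2m: actgaaaatgGGAAAGTCCCtttgtaacct

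Tap1 and Psmb9 are transcribed away from each other from RefSeq starts 225 bases apart, so their windows share bases. A single X2 match between the starts is read by Tap1 (chr17:34187458-34187487, plus strand) and, as its reverse complement, by Psmb9 (chr17:34187457-34187486, minus strand), X2 in capitals.
Tap1: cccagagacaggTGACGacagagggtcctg
Psmb9: aggaccctctgtCGTCAcctgtctctgggc

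A kappa B match was found in 3 of the 8 windows (H2-K1, H2-D1 and B2m) against 4.71% of 27025 promoters of the same length. An interferon-stimulated match was found in 2 of 8 (H2-K1 and H2-D1) against 7.56%, and a gamma-activated match in 1 of 8 (Psmb8) against 8.47%. X2 was present in 5 of 8 (H2-K1, H2-D1, B2m, Tap1 and Psmb9) against 21%, and Y in 6 of 8 (these and Tapbp) against 37.9%. A match is a description of the letters and not a binding site, and no match means only that the spelling searched was absent. The B2m bases shown hold gaaactgaaa, close to the interferon-stimulated motif but not matched by its spelling.

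Cells were kept at 200 to 6000 genes and at most 15% mitochondrial UMIs (molecular barcodes that count each captured RNA once). Runx3_fl kept 11885 of its 12968 cells and Runx3 8167 of its 8953. Median UMIs per kept cell were 9573 and 5731, and 37 cell barcodes occurred in both libraries. Cells were assigned to 6 classes by a gating gene and kept only where a single gate was passed: NK (Ncr1), T (Cd3e), B (Cd79a), neutrophil (Csf3r), conventional dendritic cell or cDC (Flt3) and macrophage (Csf1r with C1qa). In the order Runx3_fl then Runx3, the gates held 1294 and 101 NK, 2838 and 389 T, 353 and 1243 B, 1378 and 1448 neutrophil, 910 and 455 cDC, and 254 and 276 macrophage cells. Of the kept cells, 3690 and 2656 passed no gate, and 1168 and 1599 passed more than a single gate. Of 719 and 1083 cells with Csf1r and C1qa, 465 and 807 were left out because they also passed another gate. The macrophage gate therefore holds a minority of such cells in both libraries. Runx3 itself, the gene deleted in the study, was at 157 CPM (UMIs of a gene per 1000000 UMIs of the gate) in the macrophage gate of the library labelled Runx3_fl and at 245 CPM in that labelled Runx3. Whether its 3′ tags lie outside the deleted part was not known.

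The gates were not alike in the libraries. Itgam, the gene of CD11b, had a UMI in 56.9% and 57.9% of the neutrophil-gate cells (Runx3_fl, then Runx3) and in 30.6% and 9.17% of the B-gate cells. The shares were 34.5% and 11.6% in T, 27.9% and 51.6% in cDC, 59.4% and 53.5% in NK, and 63.0% and 61.2% in macrophage gates. The B gate of the library labelled Runx3_fl held 73.7% cells with Mzb1, a plasma cell gene, against 30.7% in that labelled Runx3. The summed plasma cell list was at 16708 and 7968 CPM there. In the neutrophil gate S100a8, a calprotectin gene of mature neutrophils, was at 1686 and 20311 CPM. NK genes in the T gate summed to 2845 and 306 CPM. Xcr1 and Cd209a, used below to divide the cDC gate, were there at 88.8 and 14.5 CPM and at 49.4 and 184 CPM. Cells with Xcr1 numbered 274 and 28 in that gate. At least 2 of the 6 check markers of their own class were seen in 54.7% and 83.8% of B-gate cells, 54.4% and 76.5% of neutrophil-gate cells and 81.1% and 59.1% of cDC-gate cells, so the label is weakest there. Results below are therefore also given, where a call moves, for cells with at least 2 own check markers and more of these than of any other class, also where another gate was passed (marker support), for B-gate cells without Mzb1, or for cells of 5000 to 10000 UMIs.

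As a sum, the 10 genes made up 0.519% (T) to 0.86% (neutrophil) of all UMIs in the Runx3_fl gates. In the Runx3 gates they made up 0.601% (B) to 1.02% (macrophage). After each cell was thinned to 2000 UMIs, the share of cells with a B2m UMI ran from 93.7% (B) to 98.5% (neutrophil) over the Runx3_fl gates and from 97% (neutrophil) to 100% (NK and macrophage) over the Runx3 gates. No gate can be taken to lack class I genes, so the share that free RNA gives was not measured.

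**Figure D1:**
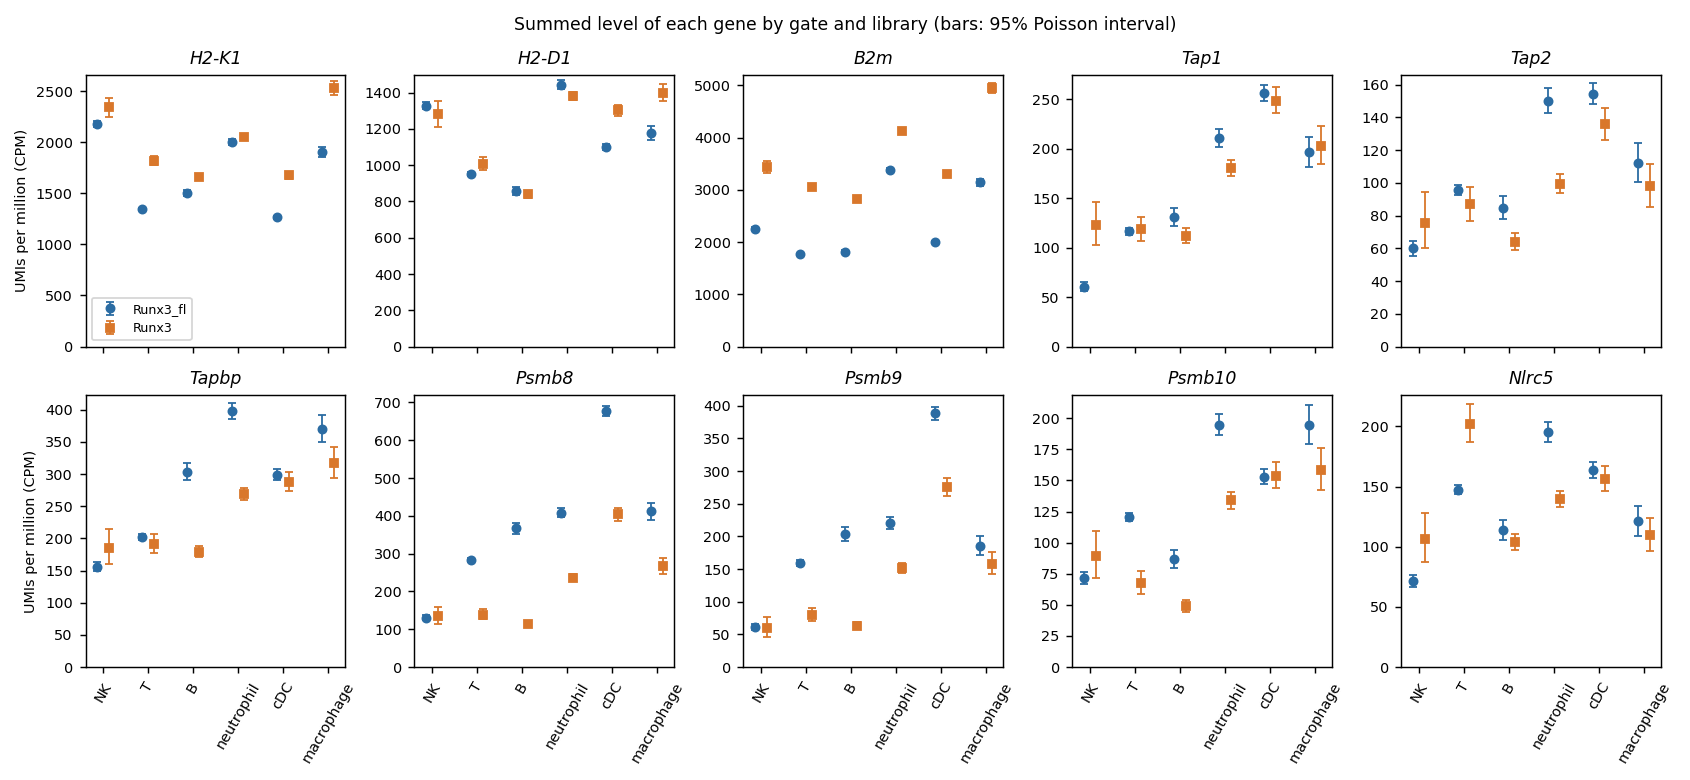
Level of each of the 10 genes in CPM (vertical axis, from 0) in the 6 gates of the libraries labelled Runx3_fl (blue circles) and Runx3 (orange squares), with 95% Poisson intervals. B2m lies higher in the library labelled Runx3 in all 6 gates, and Psmb8 lower in 5 of 6.

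B2m, the light chain shared by all class I molecules, had the higher level in Runx3 in each of the 6 gates. The level was 2255 and 3434 CPM in NK, 1768 and 3060 CPM in T, 1818 and 2826 CPM in B, 3375 and 4126 CPM in neutrophil, 1999 and 3309 CPM in cDC and 3144 and 4952 CPM in macrophage gates (Runx3_fl, then Runx3). The differences of log2 (CPM + 1), Runx3 minus Runx3_fl, ran from 0.29 (interval 0.27 to 0.31) in the neutrophil gate to 0.79 (0.76 to 0.82) in the T gate. None reached the 2-fold mark (1 on the log2 scale) used to call a difference. In cells of 5000 to 10000 UMIs, where the libraries have like depth, B2m differed by 0.51 to 0.71 in all 6 gates. With marker support the neutrophil gate turned to -0.16, and the other gates stayed between 0.57 and 0.84.

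H2-K1, a classical heavy chain, was likewise the higher in Runx3 in each gate, by 0.03 to 0.44 on the log2 scale. It was at 1342 and 1819 CPM in the T gate, 1264 and 1674 CPM in the cDC gate and 1904 and 2527 CPM in the macrophage gate. In the neutrophil gate it was at 2001 and 2050 CPM, a difference of 0.03 (0.01 to 0.06) that became -0.36 with marker support, -0.18 with the median gene set to 0, -0.08 with 2 or more UMIs of every gating marker and -0.03 with no cell filter. In the B gate it became -0.07 with the median gene set to 0 and -0.03 with mitochondrial, ribosomal, haemoglobin and immunoglobulin genes left out of the denominator.

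H2-D1 differed less, from -0.06 in the neutrophil gate (1445 and 1382 CPM) to 0.25 in the macrophage gate (1177 and 1401 CPM). Of all H2-K1 and H2-D1 UMIs, H2-K1 took 58.5% (58.2 to 58.8) in the Runx3_fl T gate and 64.3% (63.3 to 65.3) in that of Runx3. The same share was the higher in Runx3 in each of the other 5 gates, for example from 53.5% to 56.2% in the cDC gate and from 61.8% to 64.3% in the macrophage gate. These shares depend on how reads that fit both genes were treated in counting, which was not examined.

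Tap1, the first half-transporter, was the 1 gene called higher: in the NK gate it was at 60.2 CPM (673 UMIs) and 122.6 CPM (128 UMIs), a difference of 1.01 (0.74 to 1.30). Among 7336 genes at 10 or more mean CPM in that gate, 4.05% were at least 2-fold higher and 1.12% at least 2-fold lower, and of the 10 genes 1 was higher and 0 lower. The NK gate of the library labelled Runx3 held 101 cells, and with marker support the difference was 0.77. In the other 5 gates Tap1 stayed within -0.22 to 0.05.

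Tap2, the second half-transporter, had negative differences in 5 of 6 gates, the widest in the neutrophil gate at 150.0 and 99.4 CPM (-0.59, -0.71 to -0.48). Tapbp had negative differences in the same 5 gates, with 304 and 179.5 CPM in the B gate (-0.76, -0.86 to -0.66) and 397 and 268 CPM in the neutrophil gate (-0.56, -0.63 to -0.50). The intervals of Tap2 in the T and macrophage gates and of Tapbp in the T and cDC gates spanned 0. In B-gate cells without Mzb1 the Tapbp difference was -0.16.

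Psmb8, which replaces the constitutive subunit Psmb5, had the widest negative difference of the set in 5 of 6 gates. In the B gate it was at 367 and 113 CPM, a difference of -1.69 (-1.80 to -1.59), and in the T gate at 284 and 139 CPM (-1.03, -1.17 to -0.90). Both pass the 2-fold mark. In the neutrophil, cDC and macrophage gates it was at 408 and 236, 677 and 404, and 412 and 267 CPM, with differences of -0.79, -0.74 and -0.62. The NK gate did not follow, at 130.2 and 135 CPM with an interval that spans 0.

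Psmb9, which replaces Psmb6, was at 204 and 63.1 CPM in the B gate (-1.68, -1.84 to -1.54) and at 159 and 80.2 CPM in the T gate (-0.98, -1.17 to -0.81). Psmb10, which replaces Psmb7, was at 86.7 and 48.8 CPM in the B gate (-0.82) and 120.7 and 67.7 CPM in the T gate (-0.82). In the cDC gate Psmb10 was at 153 and 154 CPM (0.01, -0.11 to 0.12), while Psmb8 and Psmb9 were at -0.74 and -0.50, short of the 2-fold mark. In the library labelled Runx3_fl Psmb9 was at 464 CPM in cDC-gate cells with Xcr1 and at 232 CPM in those with Cd209a. The part of the mix of these cells in the cDC differences was not tested. Over all 60 pairs of gene and gate, 3 were at least 2-fold lower (Psmb8 in B and T, Psmb9 in B), 1 was higher (Tap1 in NK) and 56 lay within 2-fold.

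The members' counts stand beside the background of each gate. In the B gate 15% of 7719 genes were at least 2-fold lower and 18.4% higher, against 2 and 0 of the 10. In the T gate 8.88% of 7858 genes were lower and 11.1% higher, against 1 and 0. None of the 10 was called in the other 3 gates: the background there was 3.03% lower and 9.31% higher in neutrophil, 1.46% and 5.99% in cDC, and 3.1% and 9.59% in macrophage gates. With marker support Nlrc5 was 2-fold lower in the neutrophil gate (309 and 135 CPM, -1.19), as were 6.82% of all genes tested there. The median difference of the 10 genes was -0.31 in B, -0.03 in T, 0.28 in NK, -0.51 in neutrophil, -0.05 in cDC and -0.17 in macrophage gates, where the median over all genes tested was 0.22, 0.04, 0.05, 0.21, 0.08 and 0.16.

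**Figure D2:**
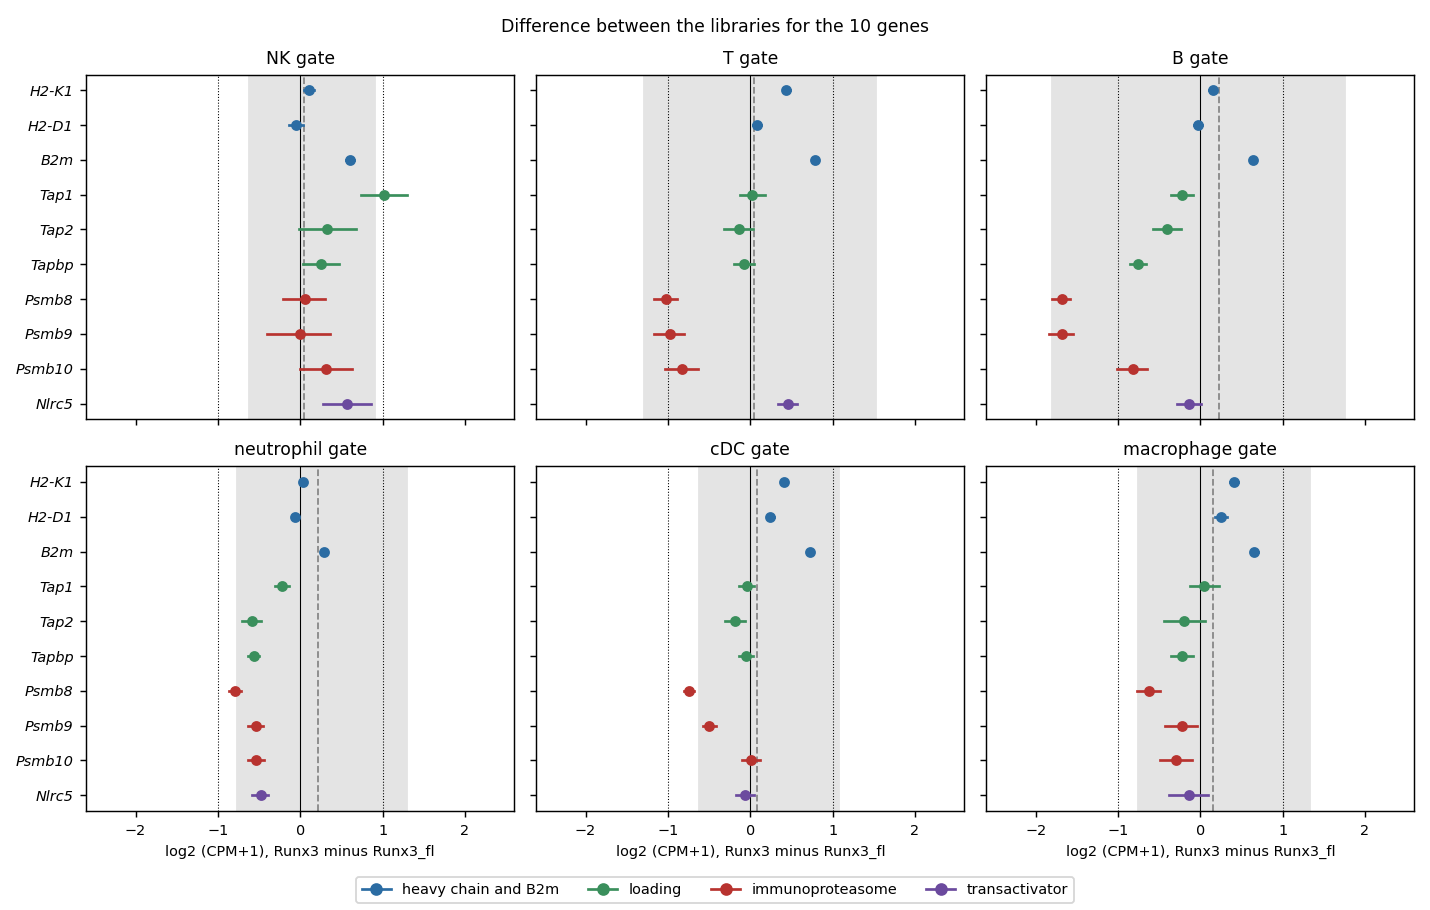
Difference of log2 (CPM + 1), Runx3 minus Runx3_fl (horizontal axis), for the 10 genes in each gate, coloured by role, with counting intervals as bars. Grey bands span the 5th to 95th percentile of all genes at 10 or more mean CPM, dashed lines their median and dotted lines the 2-fold marks. B2m lies to the right of 0 in each panel, and in the T and B panels Psmb8 and Psmb9 lie near or past the left mark.

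The B-gate calls were not seen in cells without Mzb1. Among B-gate cells without Mzb1 (93 in Runx3_fl, 862 in Runx3), Psmb8 was at 135 and 93.9 CPM (-0.52) and Psmb9 at 86.3 and 53.9 CPM (-0.67), and none of the 10 genes passed 2-fold. Of all genes tested in those cells 4.33% were lower and 4.42% higher. B2m was at 1752 and 2666 CPM (0.60) there. With marker support the B gate kept both calls (-1.38 and -1.27). In the T gate, Psmb8 fell within the mark under marker support (-0.62) and in cells of 5000 to 10000 UMIs (-0.65). In those cells of like depth the Psmb8 difference was negative in all 6 gates, from -0.35 in B to -0.66 in cDC, where the NK gate of Runx3 held 44 cells, and Psmb9 was higher in the macrophage gate (86.6 and 132 CPM, 0.61).

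**Figure D3:**
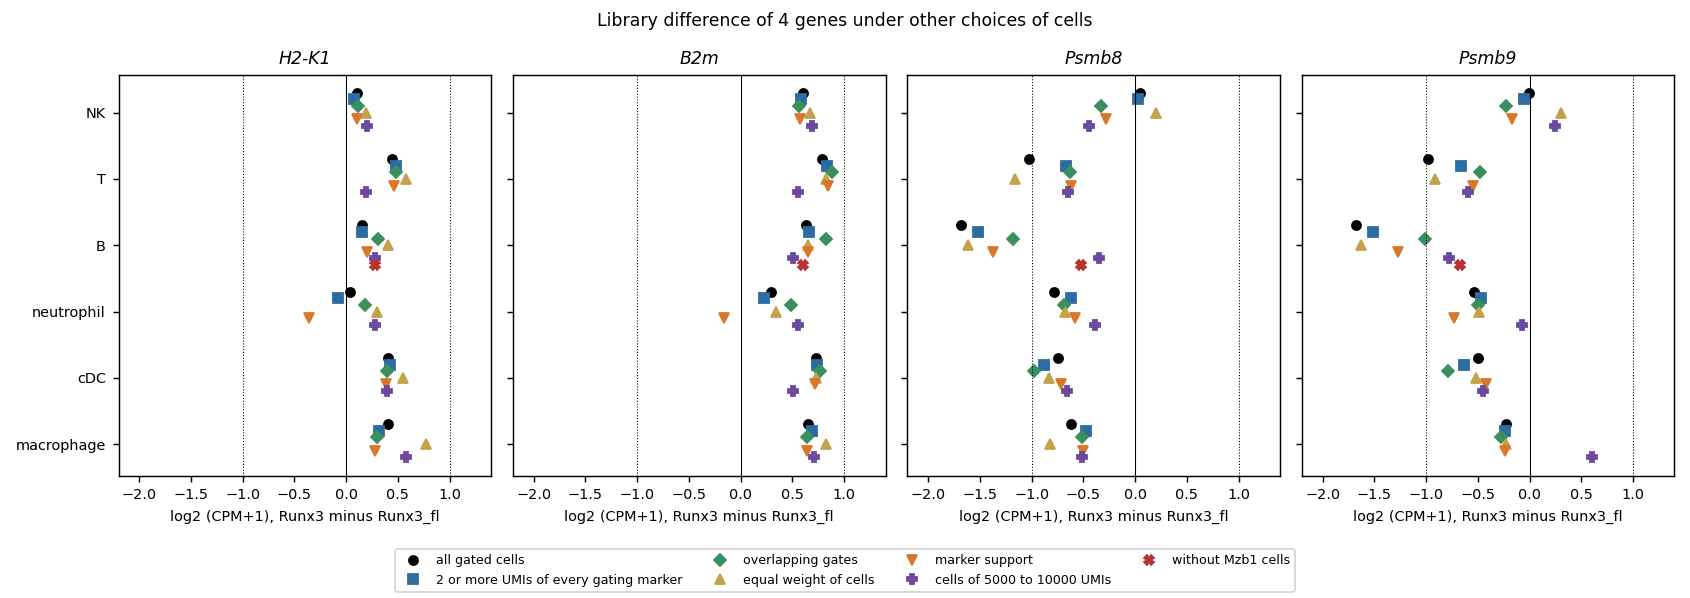
Difference of log2 (CPM + 1), Runx3 minus Runx3_fl (horizontal axis), for H2-K1, B2m, Psmb8 and Psmb9 in the 6 gates under other choices of cells (symbols), with dotted lines at the 2-fold marks. The B-gate points of Psmb8 and Psmb9 move from -1.69 and -1.68 to -0.52 and -0.67 without Mzb1 cells, while B2m stays right of 0 except for the neutrophil gate with marker support.

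The median difference of H2-K1, H2-D1 and B2m exceeded that of Psmb8, Psmb9 and Psmb10 in all 6 gates, by 0.05 in NK, 0.57 in neutrophil, 0.70 in macrophage, 0.90 in cDC, 1.42 in T and 1.82 in B gates. In cells of 5000 to 10000 UMIs this held in 5 of the gates and not in NK (0.20 and 0.25). Tap1 and Psmb9, whose starts lie 225 bases apart, differed by -0.22 and -1.68 in the B gate and by 0.02 and -0.98 in the T gate. In B-gate cells without Mzb1 the values were -0.12 and -0.67. In cells of 5000 to 10000 UMIs they were -0.17 and -0.78 in B and 0.27 and -0.60 in T.

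The rest of the proteasome was compared with the immunoproteasome subunits. The constitutive partners Psmb5, Psmb6 and Psmb7 all had negative differences in 5 of 6 gates, and 2 of the 3 were at least 2-fold lower in B and in T. In B-gate cells without Mzb1 0 of 3 were (median -0.21), and in cells of 5000 to 10000 UMIs 0 of 3 in B (-0.59) and 1 of 3 in T. In the latter cells 2 of 3 were above 0 in the macrophage gate (median 0.04) and 1 of 3 in B and in cDC. Above 0 was also 1 of 3 in the neutrophil gate with marker support (-0.03) and in B-gate cells without Mzb1. Psmb5 was at 161 and 39.6 CPM in the B gate and at 138 and 37.8 CPM in the T gate (-1.85). Of the 11 other core subunits, all 11 were below 0 in each gate but NK (5 of 11), and 7 in B and 5 in T were at least 2-fold lower, with medians of -1.04 and -0.98. Of all genes tested, 15% were lower in B and 8.88% in T. With marker support the neutrophil gate turned, with 10 of 11 above 0 and a median of 0.21. In B-gate cells without Mzb1, 0 of 11 were 2-fold lower and the median was -0.24. In cells of 5000 to 10000 UMIs, 6 of 11 were 2-fold lower in the T gate (median -1.01) and 0 of 11 in the B gate (-0.10). Above 0 in those cells were 4 of 11 in B, 3 of 11 in macrophage, and 1 of 11 in neutrophil and in cDC gates.

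The balance of immunoproteasome to constitutive subunit was read within each pair. Psmb8 took 82.2% (81.5 to 82.9) of the Psmb8 and Psmb5 UMIs in the Runx3_fl cDC gate and 81.6% (80.1 to 83) in that of Runx3. In the macrophage gate its share was 80.8% (78.8 to 82.7) and 79.0% (75.9 to 81.9). In the T gate, where Psmb8 itself was lower, its share was higher, 67.3% (66.5 to 68) and 78.6% (75 to 81.9). Psmb9 took 57.3% (54.2 to 60.3) and 63.8% (59.6 to 67.8) of its pair with Psmb6 in the macrophage gate. Psmb10 went the other way in T, with 47.3% (46.3 to 48.2) and 38.7% (34.6 to 42.9) of its pair with Psmb7. The level of such a share depends on how well each 3′ end is captured.

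The cDC gate had the highest level of Psmb8, Psmb9, Tap1 and Tap2 in both libraries. For Tap2 in the library labelled Runx3_fl the cDC and neutrophil intervals overlapped (154 and 150.0 CPM), and with marker support the neutrophil gate was the higher (158 and 183 CPM). For Psmb8 the order in the library labelled Runx3_fl was cDC, macrophage, neutrophil, B, T and NK, from 677 to 130.2 CPM, and the macrophage and neutrophil intervals overlapped. In that labelled Runx3 the order was cDC, macrophage, neutrophil, T, NK and B, from 404 to 113 CPM, with T, NK and B each overlapping its neighbour. Psmb9 was 6.4-fold higher in cDC than in NK (389 and 60.7 CPM) in the first library and 4.56-fold higher (275 and 60.3 CPM) in the second.

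For B2m the neutrophil gate led in the library labelled Runx3_fl and the macrophage gate in that labelled Runx3, and the range over gates was 1.91-fold and 1.75-fold. H2-K1 spanned 1.72-fold and 1.52-fold, with NK highest in the first library and macrophage in the second. The highest class was the same in both libraries for 4 of the 10 genes, and the lowest class for 2 of 10 (H2-D1 in B, Psmb9 in NK). Both counts moved with depth. In the cells of like depth used above, the highest class was also shared for B2m, Nlrc5 and H2-D1. For B2m it was then the macrophage gate (3256 CPM in Runx3_fl, 5312 CPM in Runx3), with the neutrophil gate at 3123 and 4588 CPM. The lowest class was then also shared for H2-K1, B2m, Psmb8, Psmb10 and Nlrc5, and no longer for Psmb9.

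At 2000 UMIs per cell, Psmb8 had a UMI in 65.4% (62.2 to 68.6) of 894 cDC-gate cells of the library labelled Runx3_fl and in 48.2% (43.4 to 53.1) of 421 in that labelled Runx3, and unthinned in 93.8% and 78.7%. In the macrophage gate the shares were 52% (45.6 to 58.4) of 248 cells and 32.3% (26.3 to 38.8) of 226, and unthinned 84.6% and 56.5%. Thinning left out 6 and 50 macrophage-gate cells and 16 and 34 cDC-gate cells. Tap1 in the NK gate had a UMI in 10.2% (8.63 to 12) of 1290 and 23.2% (15.3 to 32.8) of 99 thinned cells, unthinned 35.1% and 69.3%.

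Median B2m in the thinned macrophage-gate cells was 6 UMIs in Runx3_fl (10th to 90th percentile 2 to 10) and 10 UMIs in Runx3 (5 to 17). In the neutrophil gate the medians were 7 (3 to 12) and 9 (2 to 16). The ranges of cells overlap widely in both gates.

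Nlrc5, the transactivator that acts on class I promoters, was at 147 and 202 CPM in the T gate (0.45, 0.34 to 0.57), 71.3 and 106 CPM in NK (0.57, 0.28 to 0.86) and 195 and 139.6 CPM in neutrophil (-0.48, -0.58 to -0.39). The intervals in the B, cDC and macrophage gates spanned 0. In the cells of like depth the NK difference of Nlrc5 was 0.04. Over the 12 values of gate and library, the genes outside the 10 with the pattern nearest to Nlrc5 in log2 (CPM + 1) were Tgtp1 (Pearson r 0.84), Actn1 (0.83) and Plagl1 (0.82), among 8088 genes compared. For H2-K1 they were Npc1 (0.92), Gstm1 (0.92) and Nt5c3 (0.88), and for B2m Ftl1-ps1 (0.95), Impact (0.95) and Map11 (0.94). For Psmb8 they were Psma7 (0.97), Psma5 (0.96) and Psme2 (0.96), which are themselves proteasome core and activator genes. The 12 values share libraries and depth, so these are descriptions.

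Finer gates resolved the T, cDC and macrophage classes. Among T-gate cells with Cd8a, 1120 and 75 cells, B2m was at 1721 and 3163 CPM (0.88) and Psmb8 at 289 and 145 CPM (-0.99). Among those with Cd4, 1311 and 118 cells, B2m was at 1761 and 3096 CPM (0.81) and Psmb8 at 295 and 170.1 CPM (-0.79). Both T-cell gates had the same direction for both genes.

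Macrophage-gate cells with Ly6c2, a gene of monocyte-derived cells, numbered 165 and 223, and those without it 89 and 53. Psmb8 was at 447 and 257 CPM (-0.80, -0.96 to -0.64) with Ly6c2 and at 334 and 317 CPM (-0.08, -0.39 to 0.23) without. B2m was at 3195 and 4926 CPM (0.62) with Ly6c2 and at 3032 and 5084 CPM (0.75) without. H2-D1 was at 1206 and 1371 CPM (0.18) with it and at 1110 and 1548 CPM (0.48) without. The median UMIs of the cells without Ly6c2 were 11519 and 4337, the largest depth gap of the finer gates used.

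In cDC-gate cells with Cd209a, 125 and 142 cells of like median depth (13720 and 13569 UMIs), B2m was at 2108 and 3081 CPM (0.55) and Psmb8 at 473 and 365 CPM (-0.37). Psmb9 was at 232 and 235 CPM there (0.02, -0.18 to 0.21). Nlrc5 was at 165 and 108 CPM (-0.60, -0.87 to -0.35). None of the 10 genes passed 2-fold in any of the 5 finer gates used. Of the genes tested, 12.5% were at least 2-fold higher and 11.4% lower in T with Cd8a, 10.9% and 8.62% in T with Cd4, and 8.76% and 2.3% in cDC with Cd209a. The shares were 10.7% and 3.24% in macrophage with Ly6c2 and 16.8% and 8.63% in macrophage without it.

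Some dendritic cell and macrophage gates were large enough in the library labelled Runx3_fl alone. In its cDC-gate cells with Ccr7 and Fscn1, genes of migratory dendritic cells (139 cells), Nlrc5 was at 481 CPM (449 to 515). In those with Xcr1, a gene of cross-presenting dendritic cells (274 cells), it was at 85.3 CPM (78.2 to 92.9). B2m was at 3487 and 1544 CPM in the same gates, H2-K1 at 2034 and 995 CPM and Psmb8 at 722 and 768 CPM. The migratory gate was the higher in Nlrc5, B2m and H2-K1, and the intervals of Psmb8 overlapped. In macrophage-gate cells with Nos2 (62 cells) Psmb8 was at 459 CPM and Nlrc5 at 130.2 CPM.

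The other genes of the pathway were counted by lists, and the shares of all genes past 2-fold in each gate stand above. Of all genes tested in cells of 5000 to 10000 UMIs, 4.55% were at least 2-fold lower in B, 6.51% in T and 3.67% in neutrophil gates. The shares were 4.06% in cDC and 6.54% in macrophage gates. At least 2-fold higher in those cells were 3.14% in B, 10.9% in T and 16.3% in macrophage gates. Of the other class I genes, 10 in number, 7 reached 10 mean CPM in the macrophage gate, and none passed 2-fold there. H2-T23, which encodes Qa-1, a ligand of NK receptors, had positive differences in all 6 gates, from 0.26 in neutrophil to 0.86 in T. H2-Q7, which encodes a Qa-2 molecule, had negative ones in all 6, from -0.26 in cDC to -0.55 in neutrophil gates. These were named after their values were seen. The 5 genes of loading and trimming had 3 members at least 2-fold lower in the B gate and none in the other 5 gates. None was lower in B-gate cells without Mzb1 (median -0.31) or in cells of 5000 to 10000 UMIs of the B gate (-0.38), while 1 of 5 was lower in the neutrophil gate with marker support and in cells of 5000 to 10000 UMIs. Of the activator subunits Psme1, Psme2 and Psme3, 1 was 2-fold lower in the B gate and 1 in the neutrophil gate, and none in macrophages. The B-gate call was lost without Mzb1 cells, and both calls were lost in cells of 5000 to 10000 UMIs.

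Of the 11 interferon-gamma response genes listed, which include guanylate-binding proteins, immunity-related GTPases and chemokines, 6 were at least 2-fold lower in the macrophage gate, 6 in neutrophil, 8 in B and 4 in cDC gates, and none was higher in these 4. Of all genes tested, 3.1% were lower in the macrophage gate, 3.03% in neutrophil, 15% in B and 1.46% in cDC gates. In the macrophage gate Cxcl9, a chemokine that draws T cells, was at 1915 and 356 CPM (-2.43), Gbp5 at 184 and 53.2 CPM (-1.77) and Gbp2 at 672 and 283 CPM (-1.24). Cxcl10, Iigp1 and Gbp4 were the others past 2-fold there. With marker support 6 of 11 were again 2-fold lower in the macrophage gate and 10 of 11 in the neutrophil gate, and in cells of 5000 to 10000 UMIs 6 of 11 in both, with 1 of 11 then higher in the macrophage gate. The B-gate count was 5 of 11 without Mzb1 cells, 5 of 11 in cells of 5000 to 10000 UMIs, 4 of 10 with 2 or more UMIs of every gating marker and 1 of 11 with overlapping gates (median -0.41). In cells of 5000 to 10000 UMIs the cDC count was 8 of 11, with a median of -1.45 against -0.22 in all cDC-gate cells.

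In T, 2 of 11 were at least 2-fold higher and 2 lower, and Iigp1, a GTPase acting on vacuoles of pathogens, was at 15.8 and 76.8 CPM (2.21). In NK, 2 of the 9 at 10 mean CPM were higher and 1 was lower, and Cxcl10 was at 69.4 and 222 CPM (1.66). Of all genes tested, 11.1% were higher and 8.88% lower in T, and 4.05% and 1.12% in NK.

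Of the 16 regulators, 5 of the 14 measured were higher in T, 4 of 14 in B and 1 of 14 in macrophage gates. In the neutrophil gate 1 was higher and 1 lower. Of all genes tested, 11.1% were higher in T, 18.4% in B, 9.59% in macrophage and 9.31% in neutrophil gates, and 3.03% were lower in neutrophil. In B-gate cells without Mzb1 0 of 15 regulators were higher (median 0.09), against 4.42% of all genes tested. In cells of 5000 to 10000 UMIs 1 of 13 was higher in B and 3 of 13 in T, and of 14 in the macrophage gate 0 were higher and 1 was lower. Stat2 and Irf9, which act together in type I interferon signalling, were among those called higher over all gated cells. Stat2 was called in T, B and neutrophil gates, and Irf9 in T, B and macrophage gates. Irf9 was at 29.3 and 69.9 CPM in the macrophage gate (1.23), and Stat2 at 70.6 and 138 CPM (0.96) there and at 25.3 and 107.7 CPM in T (2.05). Jak2, a kinase of the interferon-gamma receptor and the 1 receptor-list gene past 2-fold in macrophages, was at 687 and 322 CPM (-1.09).

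The type I interferon genes split in the macrophage gate: of 8, 1 was 2-fold higher (Ifit3, 8.5 and 53.7 CPM, 2.52) and 3 lower (Ifit1, Oasl1 and Rsad2). In cDC 4 of 8 were higher and none lower, with Ifit3 at 4.11 and 63 CPM (3.65). Of all genes tested, 9.59% were higher and 3.1% lower in the macrophage gate, and 5.99% and 1.46% in cDC. With marker support 2 were higher and 2 lower in macrophage gates, and 5 higher in cDC. With the median gene set to 0, 1 was higher and 4 lower in macrophage gates. In T all 8 and in NK all 6 measured were above 0, with 4 called higher in each, against 11.1% and 4.05% of all genes. In neutrophil gates 2 were higher and 1 lower, and in B none of the 3 measured was called. Usp18 and Ifit2 were each past 2-fold higher in 3 gates, and neither in the macrophage gate.

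MHC class II genes were all 4 at least 2-fold higher in the NK and B gates, and Cd74 and H2-Ab1 also in T. Of all genes tested, 4.05% were higher in NK, 18.4% in B and 11.1% in T. With marker support none of the 4 was 2-fold higher in NK, and none was in B-gate cells without Mzb1 or of 5000 to 10000 UMIs. In T none was with the median gene set to 0. All 4 were higher in cells of 5000 to 10000 UMIs in NK (median 1.65) and T (1.38). All 4 were also higher with marker support in B (1.42) and T (1.27). Of all genes tested, 7% in NK and 10.9% in T were higher in the former, and 13.4% in B and 11.3% in T in the latter. None of the 4 passed 2-fold in cDC, neutrophil or macrophage gates. Summed class II RNA was at 697 and 1756 CPM in NK and at 14417 and 9286 CPM in the neutrophil gate. All 4 genes were below 0 in the neutrophil gate (median -0.67). There all 4 were above 0 with marker support (0.66) and in cells of 5000 to 10000 UMIs (0.09). S100a8, in the same lymphoid gates, was at 1.79 and 97.7 CPM in NK and 4.19 and 119.5 CPM in T, and summed neutrophil markers were at 34.3 and 357 CPM in cDC. The part of such RNA in the results was not tested.

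**Figure D4:**
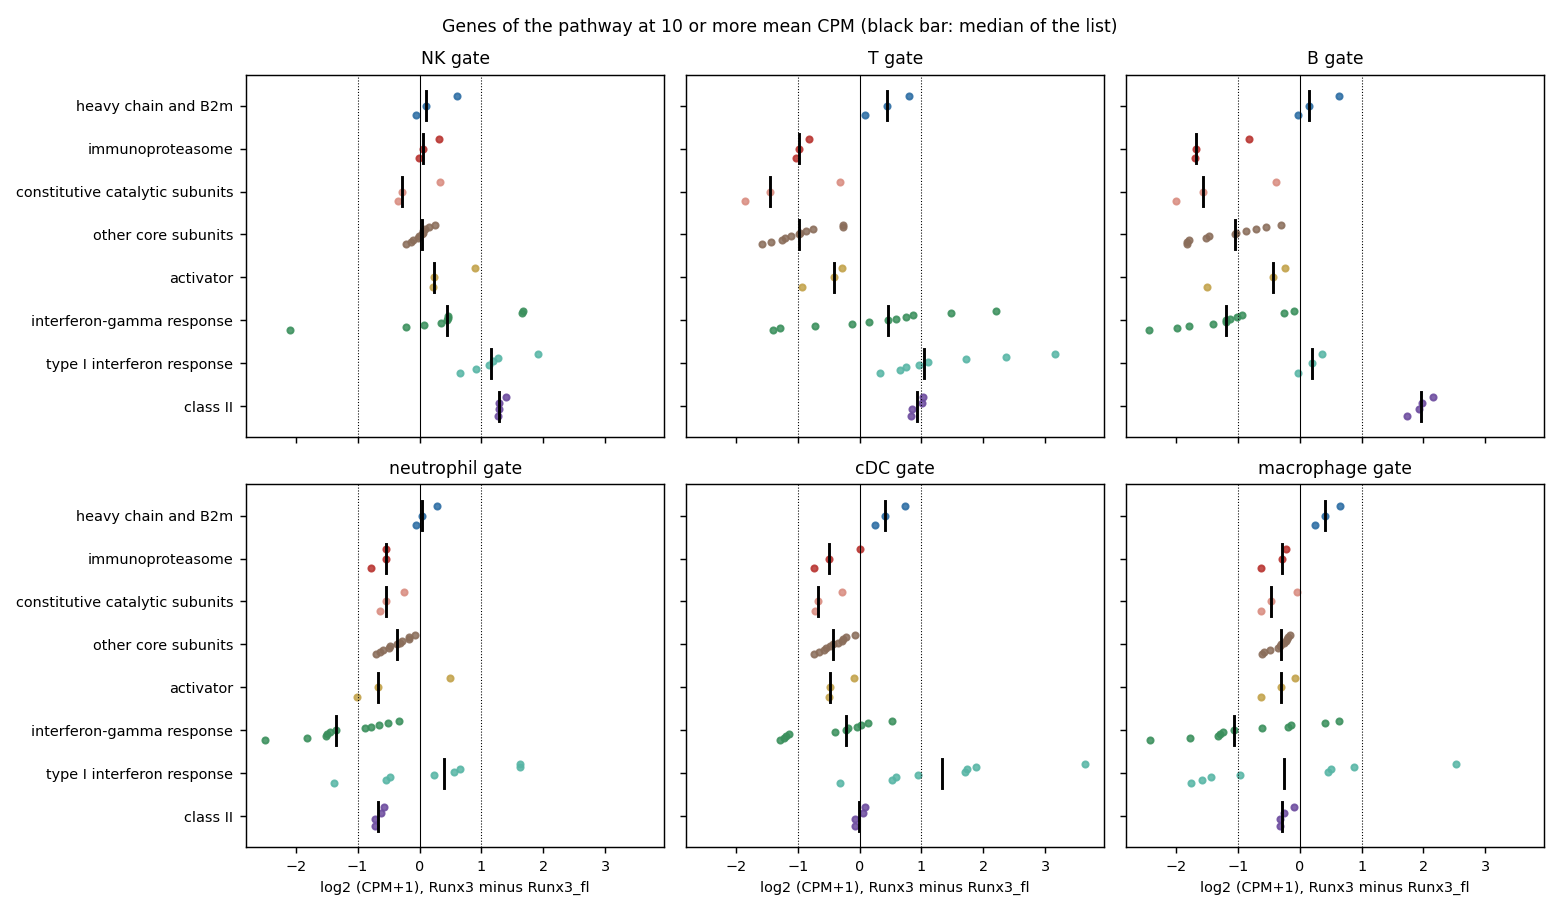
Difference of log2 (CPM + 1), Runx3 minus Runx3_fl (horizontal axis), for each gene at 10 or more mean CPM of the lists named at left, in the 6 gates, with black bars at list medians and dotted lines at the 2-fold marks. In the macrophage panel the interferon-gamma response has its median at -1.07, the immunoproteasome at -0.29, the other core subunits at -0.31 and the heavy chains with B2m at 0.41.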

How the data were processed

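The deposited files were filtered matrices holding UMI counts, made by the authors with Cell Ranger 7.1.0 per the file headers, from 10x libraries of 3′ ends. These counts were not normalized, and they depend on capture of 3′ ends. The submitters' processing notes name mm10 and Seurat 4. Counts were summed over the cells of a gate and divided by all UMIs of the gate (CPM). Differences were log2 (CPM + 1), and 2-fold was the mark for a call. Backgrounds used genes at 10 or more mean CPM. Sums carry exact Poisson intervals, ratios the exact conditional binomial interval (without the added 1), and shares exact Clopper-Pearson intervals. The 95% intervals cover counting error only. Doublets were treated by the limit of 6000 genes, with removal by simulated doublets as an alternative. Median depth per gate ran from 4602.5 (neutrophil, Runx3_fl) to 16698 UMIs (B, Runx3_fl).

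The members, gene lists and gates were chosen with earlier results of these data known. The named genes were the 10, list genes past 2-fold in the macrophage gate or in 3 gates in 1 direction, and the 3 genes most like Nlrc5, H2-K1, B2m and Psmb8. H2-T10 and Mx1 were not matched by symbol. Of 32285 gene IDs, 32158 were in GENCODE M21. The ratio step was checked on simulated sums. The tools were scikit-learn 1.9.0, pandas 2.3.3, scipy 1.17.1 and numpy 2.4.6 under Python 3.11.15.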

Additional observations from a re-analysis of the deposited data

Results flagged for a closer look

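With 1 library per group, no sample could be compared with others of its group. Genes whose difference between the libraries had its counting interval above 0 in 1 gate and below 0 in another were picked out, and the difference between gates was not tested. The log2 difference of Tap1 was 1.24 higher in the NK gate than in the neutrophil gate. That of Nlrc5 was 1.05 higher in NK than in neutrophil gates. For Tapbp the NK gate lay 1.01 above the B gate. For H2-D1 the macrophage gate lay 0.32 above the neutrophil gate. Those of Tap1 and Tapbp turn on the NK gate, which held 101 cells in the library labelled Runx3. The interval of Nlrc5 also lay above 0 in the T gate, at a difference of 0.45. In the cells of like depth used above, Nlrc5 was at 70.2 and 72.3 CPM in NK (0.04), where Runx3 held 44 cells. Its differences there were 0.372 in T and -0.496 in neutrophil gates. H2-D1 was then positive in both of its gates, at 0.195 in neutrophil and 0.37 in macrophage. With marker support H2-D1 stayed opposite in sign, at -0.57 in neutrophil and 0.33 in macrophage gates.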

How the results depend on the processing

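No paired analysis was possible because the labels give 1 library per group and no shared replicate numbers. The 12 counts of genes past 2-fold by gate and the counts of shared highest and lowest class were recomputed under other choices of cells, scaling and pseudocount. Marker support, B-gate cells without Mzb1, cells of 5000 to 10000 UMIs and cells without shared barcodes were added after seeing the data. The 1 gene higher in NK (Tap1) became 0 with overlapping gates, with the median gene set to 0, with a pseudocount of 10 CPM and with marker support. With 2 or more UMIs of every gating marker the count stayed 1 but the gene changed, with Tap1 at 0.98 and Nlrc5 at 1.03. The 1 gene lower in T (Psmb8) became 0 with 2 or more UMIs of every gating marker, overlapping gates, a pseudocount of 10 CPM, marker support and cells of 5000 to 10000 UMIs, and became 2 (Psmb8 and Psmb9) with no cell filter, with the median gene set to 0 and with doublet removal. The 2 genes lower in B became 0 without Mzb1 cells and in cells of 5000 to 10000 UMIs, and 3 with the median gene set to 0 (Psmb10 at -1.04). The neutrophil gate went from 0 to 1 lower with marker support. The lowest class was shared by 2 genes, and by 1 with 2 or more UMIs of every marker, 8 with overlapping gates, 5 with the denominator free of mitochondrial, ribosomal, haemoglobin and immunoglobulin genes and 4 with marker support. In cells of 5000 to 10000 UMIs H2-K1, H2-D1, B2m, Psmb8 and Psmb10 were lowest in B in both libraries, and Nlrc5 in NK. Psmb9 was then lowest in NK in Runx3_fl (40.5 CPM) and in B in Runx3 (37.6 CPM). In the same cells the highest class became shared for B2m, Nlrc5 and H2-D1, beside Tap1, Tap2, Psmb8 and Psmb9. The cause of these moves was not tested. No called difference changed sign. Of the 60 log2 differences, 11 changed sign with marker support, 10 in cells of 5000 to 10000 UMIs, 10 with overlapping gates, 8 with equal weight of cells, 6 with 2 or more UMIs, and 5 or fewer in each of the other alternatives. Leaving out shared barcodes moved none by more than 0.0145. Without the filter on low values, 4.12% of genes were lower in NK, 5.22% in T, 8.96% in B and 1.79% in neutrophil gates, and 7.34% were higher in NK and 14.6% in macrophage gates. With 1 pooled library per group, variation between mice was not measured.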
